A study of Homo sapiens with 6 samples.

Results

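The 14-3-3 genes are the 7 human genes YWHAB, YWHAE, YWHAG, YWHAH, YWHAQ, YWHAZ and SFN, which encode the isoforms beta, epsilon, gamma, eta, theta, zeta and sigma. They were taken by symbol from the 29908 genes of an RNA-seq table of the human hepatocellular carcinoma cell line Hep3B. YWHAZ was chosen by its FPKM values in these same libraries, which were lower after knockdown of DAGLA, so its own change is described and not tested. Its 6 sister genes entered by family name, and the question was whether any of them rose as YWHAZ fell. Of the sisters, YWHAB rose to 111% of its control level and the other 5 fell.

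14-3-3 proteins are adaptors that work as dimers of the same or of different isoforms. Each dimer grips short stretches of other proteins that carry a phosphorylated serine or threonine, and so holds its partner in the cytoplasm, masks a binding surface or locks an enzyme in a given shape. Known partners include the Hippo effector YAP, the CDC25 phosphatases, FOXO transcription factors and the death promoter BAD, and the zeta isoform is often abundant in carcinomas.

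Hep3B-KD cells were infected with lentivirus encoding an shRNA, a short hairpin RNA, directed at DAGLA, the diacylglycerol lipase that makes the endocannabinoid 2-AG. Hep3B-Con cells carried a control lentivirus, named shControl in the sample records and empty vector in the series design. Both were selected with puromycin as stable lines, and 3 samples of each, which the design calls biological replicates, were sequenced. There was 1 cell line and 1 hairpin, so an effect of the loss of DAGLA and an effect of that hairpin sequence cannot be told apart. Nothing says that the replicates came from separate transductions, so p-values measure only the spread between these samples, which may be technical.

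The hairpin sequence is shown because a guide strand can also pair through its seed, bases 2 to 8, with the mRNAs of other genes. The capitals mark the seed in the guide strand and its match in the target, both written 5′ to 3′. The guide was taken as the exact complement of the 19-base target, although the processed end in cells may differ.
hairpin target: gcgacaacaagGCCTTCAa
guide strand: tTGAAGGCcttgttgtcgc
The whole target occurred in the transcripts of 1 gene, DAGLA, in GENCODE release 29 (GRCh38). The stretch of 30 coding bases in which the 7 family members are most alike is shown next, because reads from such a stretch are the hardest to assign to 1 isoform. Only stretches that aligned without gaps and lay within 1 exon of every member were compared. Capitals mark the 9 positions at which at least 1 of the 7 members differs from the others, and YWHAZ itself is not printed. All coordinates are GRCh38.
YWHAB chr20:44901571-44901600, plus strand: AActCgcTgagcaggcTgaGcgAtaTgaTg
YWHAE chr17:1400047-1400076, minus strand: AGctGgcCgagcaggcTgaGcgAtaCgaCg
YWHAG chr7:76358745-76358774, minus strand: GGctGgcCgagcaggcGgaGcgCtaCgaCg
YWHAH chr22:31944768-31944797, plus strand: GGctGgcCgagcaggcGgaGcgCtaCgaCg
YWHAQ chr2:9630392-9630421, minus strand: AGctGgcCgagcaggcCgaGcgCtaCgaCg
SFN chr1:26863244-26863273, plus strand: AGctGgcAgagcaggcCgaAcgCtaTgaGg
YWHAG and YWHAH were identical over these 30 bases. Across the whole coding sequence, pairs of members shared between 59.1% (YWHAE and SFN) and 78.9% (YWHAG and YWHAH) of aligned bases, and YWHAZ was closest to YWHAB at 74.6% and to YWHAQ at 73.6%. No window of 50 bases in the longest coding transcript of any member occurred in a transcript of another member. Windows shared with genes outside the family, pseudogenes included, made up 11.2% of YWHAZ, 5.6% of YWHAE, 3.1% of YWHAH and 2.1% of YWHAQ, and none of YWHAB, YWHAG or SFN.

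Levels are given as FPKM, the reads of a gene scaled to its exon length and to the reads of the library counted to genes. These counted reads, recovered from the FPKM values, numbered between 15861039 and 17572714 per library. The target gene DAGLA fell from 9.28 ± 0.229 FPKM (SD, n = 3) in Hep3B-Con to 4.62 ± 0.164 (SD, n = 3) in Hep3B-KD, a log2 fold change of -0.99 (adjusted p = 5.25e-06, limma). The 8 hepatocyte markers were all expressed and summed to between 2565 and 2612 FPKM in Hep3B-Con and between 4088 and 4105 in Hep3B-KD. HNF4A fell and the other 7 rose. Of 6 markers of fibroblasts, endothelium and leukocytes, 5 stayed under 1 FPKM in every library, the exception being PDGFRB. The sum of all 6 was 3.55 to 3.83 FPKM in Hep3B-Con and 2.72 to 2.76 in Hep3B-KD. PDGFRB and COL1A1 were lower without overlap. The endothelial marker PECAM1 was higher without overlap, at 0.197 and 0.34 FPKM, too low to be tested, and the others overlapped. In bulk RNA, fewer cells of a type and less RNA per cell cannot be told apart. Genes whose mean reached 0.5 FPKM were tested with limma on log2(FPKM + 0.1), a scale that understates changes of low genes. All 7 members passed that filter. An adjusted p under 0.05 was reached by 59.9% of the 14221 genes tested, by 36.1% as a rise and by 23.8% as a fall, and the median log2 fold change of all of them was 0.11.

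YWHAZ (ENSG00000164924), the zeta isoform, lies on chromosome 8 from 100916525 to 100953388 on the minus strand. Its level was 132.6, 133.5 and 133.6 FPKM in Hep3B-Con replicates 1 to 3 and 52.25, 51.95 and 51.62 FPKM in Hep3B-KD replicates 1 to 3. The groups were far apart and the replicates within each group nearly equal. The mean went from 133.2 ± 0.524 to 51.94 ± 0.315 FPKM (SD, n = 3 each), that is to 39.0% of the control level, with 19019 to 19941 reads per Hep3B-Con library and 7090 to 7328 per Hep3B-KD library. Its log2 fold change was -1.36, and 268 of the 14221 genes had a lower one.

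YWHAB (ENSG00000166913), the beta isoform and the closest relative of YWHAZ in coding sequence, spans bases 44885676 to 44908532 of chromosome 20, plus strand. It measured 40.66, 42.64 and 41.65 FPKM in Hep3B-Con and 46.27, 46.47 and 45.97 FPKM in Hep3B-KD. All 3 knockdown values were above all 3 control values, an order found for 40.7% of all genes tested. The log2 fold change was 0.15 (95% interval 0.09 to 0.21, adjusted p = 0.00154, limma), or 111% of the control level. When each library was centred on its median log ratio, the log2 fold change was 0.05 and the call was lost (adjusted p = 0.133, limma), and under quantile normalization it was 0.27 (adjusted p = 0.000176, limma).

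The other 4 abundant sisters fell. YWHAE (ENSG00000108953), the epsilon isoform on chromosome 17 from 1344272 to 1400378 on the minus strand, was the most abundant member, at 194.1, 201.2 and 199.7 FPKM in Hep3B-Con and 169.3, 172.8 and 169.6 FPKM in Hep3B-KD. The groups did not overlap, as in 66.9% of all genes, 26.3% with the knockdown values below, and its log2 fold change was -0.22 (95% interval -0.26 to -0.17, adjusted p = 9.52e-05, limma). Under quantile normalization it was -0.04 and was not called (adjusted p = 0.0606, limma). YWHAG (ENSG00000170027), the gamma isoform on chromosome 7 from 76326794 to 76359031 on the minus strand, measured 168.4, 171.6 and 175.0 FPKM in Hep3B-Con and 134.8, 133.7 and 130.5 FPKM in Hep3B-KD. Every knockdown value lay below every control value. Its log2 fold change was -0.37 (95% interval -0.42 to -0.32, adjusted p = 1.47e-05, limma).

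YWHAH (ENSG00000128245), the eta isoform at bases 31944461 to 31957603 of chromosome 22, plus strand, measured 95.21, 100.9 and 99.41 FPKM in Hep3B-Con and 69.70, 68.00 and 69.70 FPKM in Hep3B-KD. The knockdown samples were again lower without overlap. Its log2 fold change was -0.51 (95% interval -0.57 to -0.45, adjusted p = 9.41e-06, limma). Its exons overlap those of C22orf24 on the opposite strand by 22 bases, 0.9% of its exon length. YWHAQ (ENSG00000134308), the theta isoform on chromosome 2 from 9583972 to 9631014 on the minus strand, measured 159.3, 149.8 and 151.0 FPKM in Hep3B-Con and 103.4, 109.0 and 107.9 FPKM in Hep3B-KD. The lowest control value stood above the highest knockdown value. Its log2 fold change was -0.52 (95% interval -0.60 to -0.45, adjusted p = 1.75e-05, limma).

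SFN (ENSG00000175793) encodes the sigma isoform, a stress-induced inhibitor of the cell cycle in epithelia. The gene spans bases 26863138 to 26864457 of chromosome 1, plus strand. It was barely expressed, at 1.38, 1.83 and 1.64 FPKM in Hep3B-Con and 1.19, 0.896 and 0.730 FPKM in Hep3B-KD, from 32 to 42 and 16 to 25 reads. The groups did not overlap, but the gap was narrow. Its log2 fold change was -0.74 (95% interval -1.21 to -0.27, adjusted p = 0.0159, limma), and without Hep3B-Con replicate 2 it was -0.65 and not called (adjusted p = 0.0568, limma). With a pseudocount of 1 it was -0.44, and under quantile normalization it was -1.01 (adjusted p = 0.0044, limma).

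**Figure D1:**
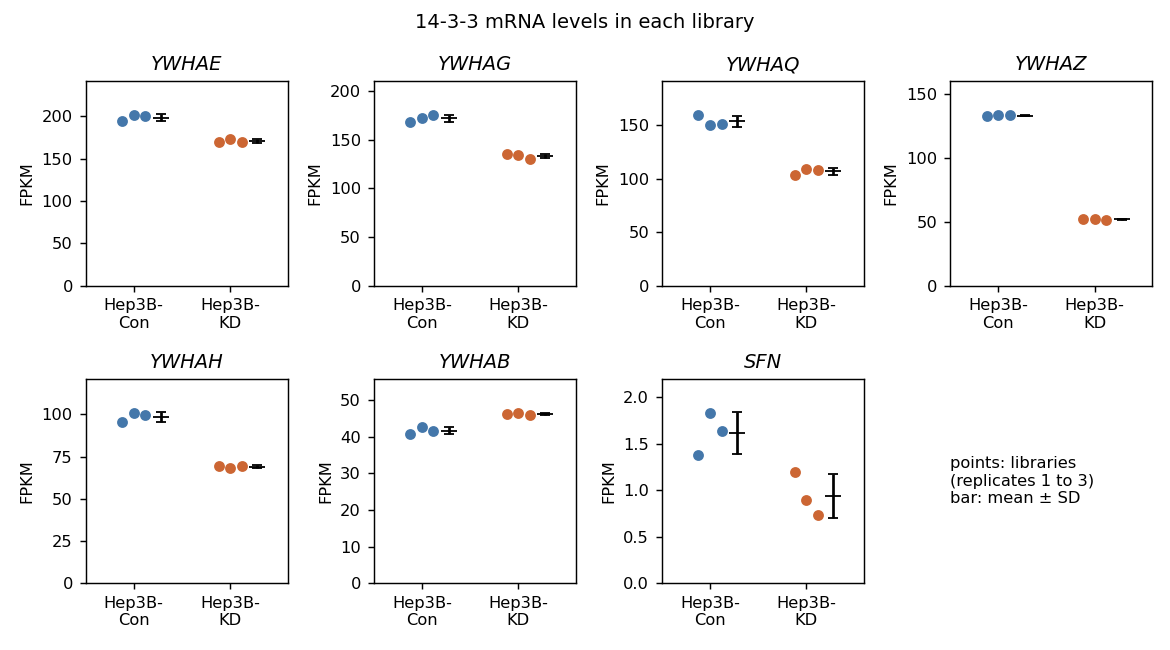
FPKM (vertical axes, each from 0) of the 7 14-3-3 genes in the 3 Hep3B-Con and 3 Hep3B-KD libraries, with 1 panel per gene, 1 point per library and the mean ± SD as a black bar. YWHAZ shows the widest gap, 133.2 against 51.94 FPKM, and YWHAB is the only panel in which the Hep3B-KD points are the higher ones.

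Of the 6 sisters, then, 5 were lower and 1 was higher with an adjusted p under 0.05, beside 23.8% and 36.1% of all genes tested. None of the 6 reached a fold change of 2 on the deposited values, though SFN did under quantile normalization. On the deposited values 8.83% of all genes reached it together with the adjusted p, 5.89% as rises and 2.94% as falls. The median log2 fold change over all 7 members was -0.51, a value that includes YWHAZ, which was chosen for its fall. The scaling mattered most for the small changes. The 940 genes tested with a mean at or above that of YWHAB had a median log2 fold change of -0.13, which was -0.24 with median centring and 0.00 under quantile normalization. YWHAG, YWHAH and YWHAQ kept their calls in all 16 alternative fits, but quantile normalization made all of these falls smaller. It brought the log2 fold changes of YWHAG from -0.37 to -0.18, of YWHAH from -0.51 to -0.37 and of YWHAQ from -0.52 to -0.35.

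**Figure D2:**
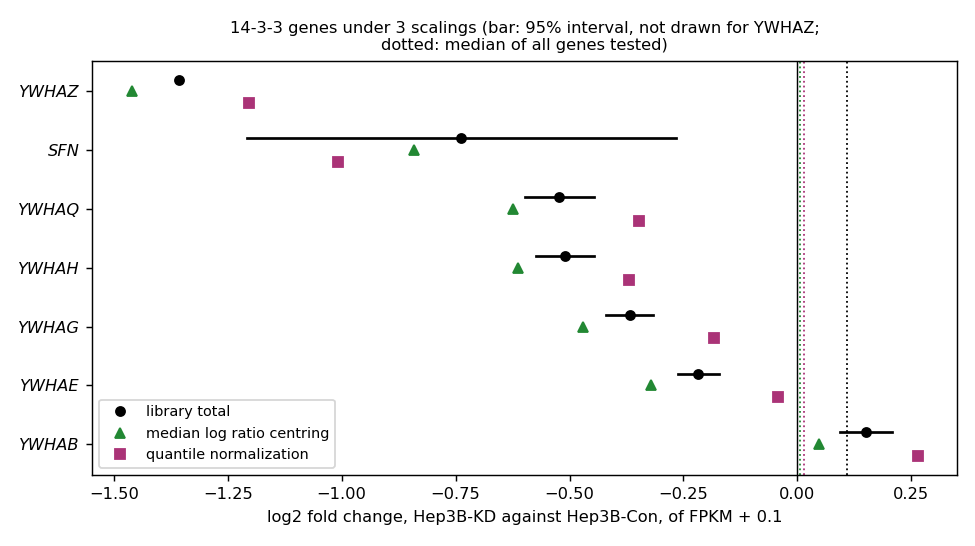
Log2 fold change of FPKM + 0.1, Hep3B-KD against Hep3B-Con (horizontal axis), of each 14-3-3 gene as deposited (circles), after median log ratio centring (triangles) and after quantile normalization (squares). Bars are 95% intervals from limma, drawn for the sisters and not for YWHAZ, and dotted lines are the medians of all genes tested. YWHAB stays above 0 under the 3 scalings and the other 6 genes stay below 0, with YWHAE at -0.04 under quantile normalization.

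Because FPKM is scaled to gene length, the isoforms could be added within each library. The sum of all 7 was 791.7, 801.6 and 801.9 FPKM in Hep3B-Con and 576.9, 582.9 and 576.1 FPKM in Hep3B-KD. The summed level in the knockdown samples was therefore 72.5% of the control level. Without YWHAZ the sum was 659.1, 668.0 and 668.4 FPKM in Hep3B-Con and 524.7, 530.9 and 524.4 FPKM in Hep3B-KD, or 79.2% of control. The sum of the sisters fell by 138.5 FPKM as YWHAZ fell by 81.3 FPKM. The rise of YWHAB, 4.58 FPKM, equalled 5.64% of the fall of YWHAZ. No test was made of these sums.

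The make-up of the family shifted. YWHAZ entered for its fall, so its smaller share followed from that choice, and a fall of YWHAZ alone also raises the shares of the others. Shares among the 6 sisters alone were not computed. YWHAZ held 16.7% ± 0.0559 of the sum in Hep3B-Con and 8.98% ± 0.0730 in Hep3B-KD (SD, n = 3 each). YWHAE went from 24.8% ± 0.299 to 29.5% ± 0.158, YWHAG from 21.5% ± 0.287 to 23.0% ± 0.358 and YWHAB from 5.22% ± 0.0941 to 7.99% ± 0.0258, with no overlap between groups in any of these 3. The shares of YWHAQ, YWHAH and SFN overlapped between the groups. A larger share of YWHAE and YWHAG thus stood beside lower levels of both mRNAs.

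In Hep3B-Con the levels ran in the order YWHAE, YWHAG, YWHAQ, YWHAZ, YWHAH, YWHAB and SFN. In Hep3B-KD YWHAH and YWHAZ changed places and the order of the others was the same. No neighbours in either order overlapped in their replicate values. The order depends on the length behind each FPKM, which counts every annotated exon of a gene. This length was 7933 bases for YWHAB and 8555 for YWHAZ, whose longest coding transcripts have 3109 and 5248 bases. With transcript length instead, an alternative chosen after seeing the data, YWHAZ held rank 2 of 7 in Hep3B-Con, at 217.2 FPKM, and rank 6 in Hep3B-KD, at 84.7 FPKM. YWHAB moved from rank 6 at 106.3 FPKM to rank 4 at 118.0 FPKM, and its rise then equalled 8.82% of the fall of YWHAZ. Its share of the sum then rose by 4.63 percentage points, against 2.77 with all exons, and that of YWHAG by 0.746 against 1.49.

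**Figure D3:**
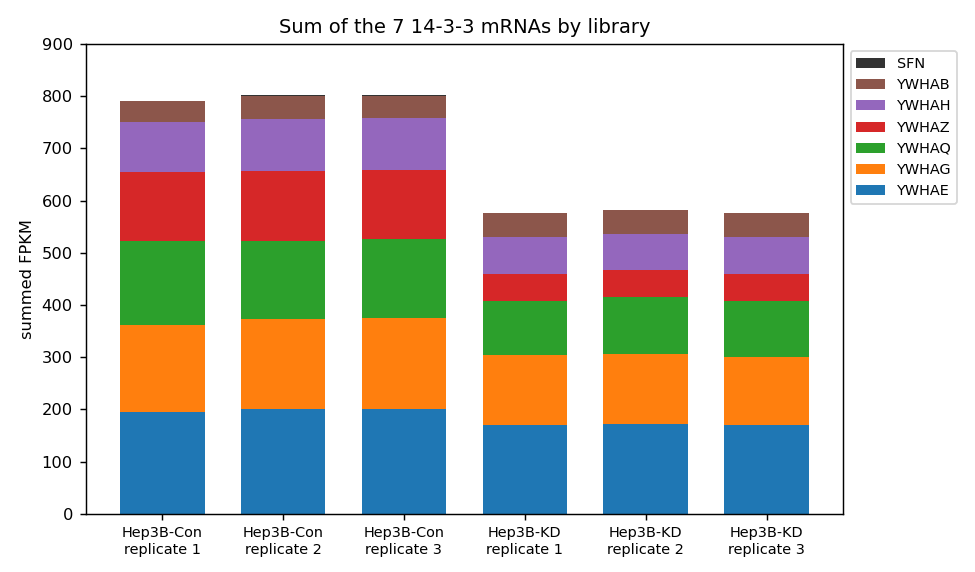
Summed FPKM (vertical axis) of the 7 14-3-3 genes in each of the 6 libraries, stacked by gene. The 3 Hep3B-Con bars reach 791.7 to 801.9 FPKM and the 3 Hep3B-KD bars 576.1 to 582.9, and the YWHAZ segment shrinks from 16.7% to 8.98% of the bar.

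The members were then compared with the hairpin through their 3′ UTRs. The 7-base match GCCTTCA to the guide seed occurred in the longest annotated 3′ UTR of 1 of 7 members, YWHAZ, and in that of none of its 6 sisters. Of 11185 expressed genes with a 3′ UTR of at least 50 bases, 14.5% held this match. In YWHAZ it stood at bases 1426 to 1432 of a 4168-base 3′ UTR, was followed by an A, and was present in 5 of the 12 coding transcripts that have a 3′ UTR. Over whole transcripts of any type, the match occurred in 5 of 23 of YWHAZ, 1 of 8 of YWHAB and 1 of 1 of SFN. In YWHAB and SFN it lay in no 3′ UTR that was searched. The YWHAZ 3′ UTR was also the longest of the family, the others ranging from 498 bases in SFN to 2783 in YWHAG. The shorter match CCTTCA to bases 2 to 7, which lies within the first motif, occurred at 2 places in YWHAZ, 2 in YWHAH and 1 in YWHAQ, and in 41.4% of the expressed genes. The match GTTGTCG to the seed of the opposite strand occurred in the longest 3′ UTR of no member and of 1.3% of the genes. Only the mRNA strand was searched. A match is a stretch of letters and not a shown site, and its part in the fall of YWHAZ was not tested.

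**Figure D4:**
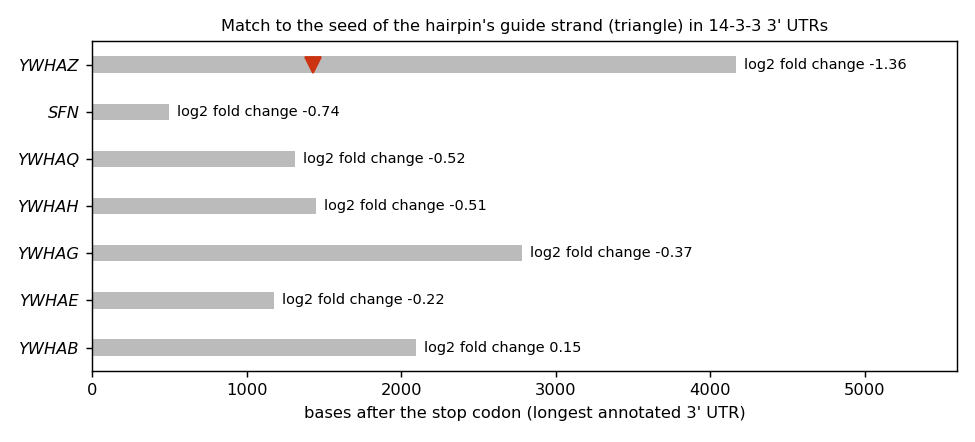
Longest annotated 3′ UTR of each 14-3-3 gene as a grey bar (horizontal axis, bases after the stop codon), with a triangle at each match to bases 2 to 8 of the guide strand and the log2 fold change, Hep3B-KD against Hep3B-Con, written beside the bar. The only triangle stands at base 1426 of YWHAZ, whose log2 fold change was -1.36.

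Processed pseudogenes can take up reads of their parent genes. The table held 9 rows named as pseudogenes of YWHA genes, of which 3 passed the filter. YWHAZP3 measured 2.36 ± 0.523 FPKM in Hep3B-Con and 1.08 ± 0.499 in Hep3B-KD (SD, n = 3 each) and fell by 1.15 on the log2 scale (adjusted p = 0.0319, limma), a value that rested on 26 to 38 and on 6 to 17 reads. It was not called without the filter on low values (adjusted p = 0.0707, limma) or without any 1 of the 3 Hep3B-Con libraries (adjusted p = 0.0545, 0.0996 and 0.0630 without replicates 1, 2 and 3, limma), and it missed the threshold in a fit without the variance trend (adjusted p = 0.0564, limma). Without Hep3B-KD replicate 1 the log2 fold change was -0.72, and it was -0.71 with a pseudocount of 1. YWHAEP1 (0.19, adjusted p = 0.509, limma) and YWHAZP4 (0.37, adjusted p = 0.583, limma) did not pass. In each library these rows held few reads beside the 7090 or more of YWHAZ and the 10329 or more of YWHAE. How the counter treated reads that fit both a parent and a pseudogene is not known. The rows therefore do not measure reads that a parent gene may have lost.

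Partners that 14-3-3 proteins bind were examined next, as mRNA levels, from a list of 45 genes. Of the 43 above the filter, 18 were higher and 17 lower with an adjusted p under 0.05, together 81.4% beside 59.9% of all genes, and 8 did not pass. Their median log2 fold change was -0.02 beside 0.11 for all genes. Centring on the median log ratio changed the split to 15 higher and 21 lower. The partners thus moved in both directions, and only AKT1S1 and TBC1D4 changed by 2-fold or more.

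The largest falls were those of AKT1S1, ABL1, CDC25B and HDAC7. AKT1S1, the mTOR complex inhibitor PRAS40 that 14-3-3 binds after phosphorylation by AKT, fell from 20.2 ± 0.409 to 9.75 ± 0.487 FPKM (log2 fold change -1.04, adjusted p = 3.88e-06, limma). The tyrosine kinase ABL1 fell by 0.77 on the log2 scale, the mitotic phosphatase CDC25B by 0.77 and the histone deacetylase HDAC7 by 0.71. The largest rises were those of TBC1D4, a Rab GTPase-activating protein of glucose uptake, from 3.04 ± 0.202 to 6.51 ± 0.486 FPKM (1.07, adjusted p = 3.70e-05, limma), the autophagy kinase ULK1 (0.75), the histone deacetylase HDAC5 (0.73) and the kinase BRAF (0.58, but 0.33 under quantile normalization and 0.35 with a pseudocount of 1). Members of a protein family therefore moved in opposite directions, HDAC5 rising and HDAC7 falling.

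YAP1, the Hippo effector that 14-3-3 holds in the cytoplasm, fell from 16.2 ± 0.414 to 11.1 ± 0.227 FPKM (log2 fold change -0.54, adjusted p = 1.94e-05, limma). All 3 knockdown values were below the control values. BAD was at 1.01 ± 0.177 and 1.36 ± 0.236 FPKM with overlapping groups, and its difference was not called (0.39, adjusted p = 0.101, limma, and 0.13 under quantile normalization).

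Kinases that create 14-3-3 binding sites made up a list of 26 genes, of which 25 were tested, 13 rose, 8 fell and 4 did not pass, so that 84% were called beside 59.9% of all genes. The median log2 fold change was 0.13, near the 0.11 of all genes. SGK1, a kinase related to AKT, rose most, from 5.86 ± 0.182 to 15.2 ± 0.357 FPKM (1.36, adjusted p = 9.33e-07, limma). It was the only kinase of the list to change 2-fold. The protein kinase A subunit PRKACB (0.78), the Hippo kinase LATS1 (0.67) and protein kinase D1, PRKD1 (0.64), also rose. The polarity kinase MARK2 (-0.72), protein kinase D2, PRKD2 (-0.58), the checkpoint kinase CHEK2 (-0.51) and PIM3 (-0.45) fell. LATS2, which like LATS1 phosphorylates YAP, measured 8.48 ± 0.499 and 8.68 ± 0.433 FPKM and its difference was not called (adjusted p = 0.652, limma). AKT1 measured 7.57 ± 0.811 and 7.69 ± 0.126 FPKM and was not called either (adjusted p = 0.787, limma), and the sign of both differences turned with the scaling.

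**Figure D5:**
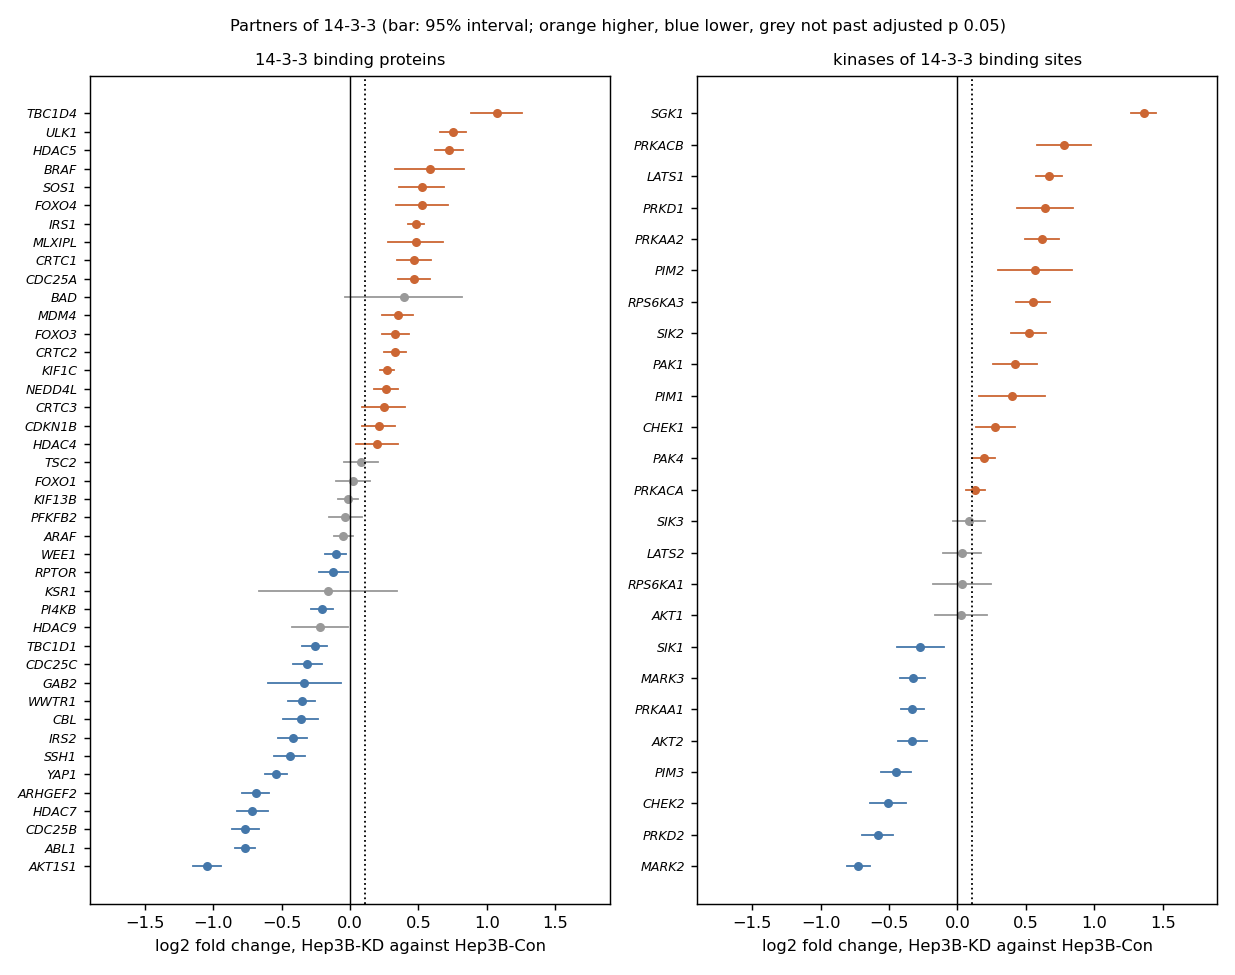
Log2 fold change, Hep3B-KD against Hep3B-Con (horizontal axes), of the 43 tested 14-3-3 binding proteins, 1 of them not drawn, and the 25 tested kinases of their binding sites, with 95% intervals from limma. Orange marks a rise and blue a fall with an adjusted p under 0.05, grey neither, and the dotted line the median of all genes tested, 0.11. The 43 binding proteins divide into 18 rises and 17 falls, 1 of the falls not drawn, and SGK1 at 1.36 lies at the top of the kinases.

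Of 7 genes known to act on 14-3-3 genes or proteins, 4 rose, 1 fell and 2 did not pass, so that 71.4% were called beside 59.9% of all genes. COP1, a ubiquitin ligase that targets 14-3-3 sigma, rose from 15.5 ± 0.209 to 20.7 ± 0.530 FPKM (0.41, adjusted p = 3.89e-05, limma). The stress kinase MAPK8 (0.55), which phosphorylates several isoforms and frees their partners, BRCA1 (0.52), a co-activator of SFN, and the casein kinase CSNK1A1 (0.22, and 0.11 with median centring) rose as well. PRKCD, a protein kinase C, fell by 0.47. TRIM25, a ubiquitin ligase of 14-3-3 sigma, was not called (0.05, adjusted p = 0.305, limma), and was named after its value had been seen.

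The genes whose pattern over the 6 libraries was most like that of YWHAZ were found by the root mean square difference of gene-centred log2 values. They were the membrane-binding annexin ANXA2 (0.0217), the actin regulator ENAH (0.0259), talin TLN1 (0.0296), the amino acid transporter chain SLC3A2 (0.0301) and the activin subunit INHBE (0.0335). ANXA2 went from 67.1 ± 1.01 to 26.8 ± 0.182 FPKM and TLN1 from 68.9 ± 0.938 to 26.2 ± 0.657. For the sisters the nearest genes were SUPT16H for YWHAB (0.0115), ACTB for YWHAE (0.0102), PDIA3 for YWHAG (0.0062), CLDN1 for YWHAH (0.0132), TPST2 for YWHAQ (0.0181) and MIR5587 for SFN (0.119). The match of SFN was the most distant and the least secure. SFN rested on 16 to 42 reads, and MIR5587, a microRNA row, varied in Hep3B-KD (7.42 ± 1.94 FPKM). ACTB, the cytoskeletal beta-actin, measured 2273 ± 30.8 and 1944 ± 15.9 FPKM. These are likenesses of pattern across libraries, with the mean level of each gene removed, and carry no test.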

How the data were processed

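The mRNA libraries came from a TruSeq preparation and an Illumina HiSeq run. FPKM, computed and deposited by the authors, filled a single table (29908 genes, 6 libraries). The submitters' processing notes name TopHat2 2.0.12, Bowtie2 2.0.6 and GRCh37, with no role given. The counter, its strand setting and the annotation are not given in the sources used here. All 29908 identifiers were found in GENCODE release 29 (GRCh38), which supplied symbols, coordinates and transcripts. With its exon lengths, 100% of FPKM values came out within 0.01 of whole reads, so read numbers behind each value are known. They cover counting error only.

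Genes whose mean reached 0.5 FPKM were fitted as log2(FPKM + 0.1) with limma 3.58.1 (lmFit, eBayes with trend) in R 4.3.3, two-sided, with Benjamini-Hochberg adjustment over the 14221 genes. Libraries were grouped by the hairpin in their titles. Replicates of a group differed by more than sampling noise (chi-square per gene 1.8 to 3.3). The fit was checked on simulated reads. Python 3.11.15 and matplotlib 3.10.9 handled tables and figures. The members and lists were chosen with earlier results of these data known. Named were all members, DAGLA, pseudogenes over the filter, the 4 largest called rises and falls of each list, YAP1, BAD, LATS1, LATS2 and AKT1, and the nearest genes by pattern (5 for YWHAZ, 1 for each sister). Values of some single genes of the lists are not reported here. For the marker lists only sums, counts and exceptions are given. The alternatives tried were pseudocounts of 1 and 0.01, no filter on low values or a minimum of 1 FPKM, a common FPKM sum (TPM), median log ratio centring, quantile normalization, no trend, a replicate block, voom on recovered reads and each library left out. Transcript length in place of all exons was added after the data had been seen.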

Additional observations from a re-analysis of the deposited data

How the results depend on the processing

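Of 96 log2 fold changes of the 6 sisters under alternative fits, 93 kept their direction and side of the threshold, 3 lost the call and 0 reversed. The 3 were YWHAB under median centring, YWHAE under quantile normalization and SFN without Hep3B-Con replicate 2. Median centring therefore left 0 sisters higher with an adjusted p under 0.05, although the log2 fold change of YWHAB was still 0.047. The family sum, as a percent of Hep3B-Con, was 73.8 (TPM), 67.5 (median centring), 81.4 (quantile normalization) and 73.8 (transcript length). Without YWHAZ it was 80.7, 73.7, 88.9 and 81.8 in the same order. With a pseudocount of 1, 503 genes passed the adjusted p and a fold change of 2, against 1256. The sign of AKT1 turned at -0.076 (median centring) and -0.058 (quantile), and leaving out libraries gave -0.064 to 0.075. For LATS2 the values were -0.07, -0.033 and -0.008 to 0.076. YWHAEP1 reached -0.064 under quantile normalization and -0.049 to 0.414 with libraries left out, and YWHAZP4 -0.19 to 0.87. The cause was not tested. Low read numbers limit SFN and the pseudogenes, and nothing here measures protein.

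Replicates with the same number did not deviate together (correlations across genes -0.01, -0.07 and -0.00). No sign of pairing by number was thus seen, which does not show that same-numbered samples were prepared apart. With the replicate number as a block, 7919 genes had an adjusted p under 0.05, against 8521. Of the sisters, 1 was then higher and 5 lower.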
